A study of Rattus norvegicus with 12 samples.

Results

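The left ventricle (LV) and the right ventricle (RV) of volume-overloaded (VO) neonatal rats were compared in 6 of the 12 libraries of the series, 3 of VO LV and 3 of VO RV, over all 32545 genes of the deposited table, of which 13910 were tested. The rats were of the SD strain (Sprague–Dawley) and received, at postnatal day 1, a fistula that joined the abdominal aorta to the inferior vena cava. RNA of the myocardium of each ventricular free wall was sequenced at postnatal day 7. The 6 libraries of sham-operated rats of the same strain and age (3 sham LV and 3 sham RV) entered the same model and are given beside the VO values. The fistula loads both ventricles of the same heart, so VO RV is not an unloaded control of VO LV, and neither the labels nor the methods say whether a VO LV and a VO RV library came from the same animal, or how many animals one library holds. The p values below therefore measure the spread between these libraries, which may be technical in part.

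In the embryo, the LV arises mainly from the progenitors of the first heart field and the RV from those of the second. Transcription factors such as Hand1, Hand2, Tbx5 and the Irx family mark these origins. After birth the LV pumps against the systemic circulation and the RV against the falling pressure of the lungs. A volume-loaded ventricle enlarges, and its cardiomyocytes typically release natriuretic peptides and remake their sarcomeres, metabolism and surrounding matrix.

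Expression was given as FPKM, the fragments on a gene per kilobase of its length, scaled to the fragments of its library. Between 14647965 and 16871371 reads lay on genes in each VO library, and 3 reads on a gene of 1 kb corresponded to 0.167 to 0.201 FPKM. Among the VO libraries, VO RV replicate 2 stood apart. Its summed level of 10 atrial cardiomyocyte markers was 4689 FPKM, against 400 and 322 FPKM in VO RV replicates 1 and 3 and 962 to 1807 FPKM in VO LV. Nppa, the gene of a natriuretic peptide, is among these markers. It made up 3037 FPKM of the sum in VO RV replicate 2 and 610 to 1423 FPKM of the sums in VO LV. Sarcolipin (Sln), an atrial regulator of the calcium pump, was 388 FPKM in VO RV replicate 2 and at most 0.623 FPKM in the other 5 VO libraries. The same library had the lowest summed level of 9 tested ventricular cardiomyocyte markers (16650 FPKM against 23380 to 26820 FPKM) and the highest of fibroblast markers (4696 FPKM against 2119 to 3027 FPKM). VO RV replicate 3 was the only VO library with more than a few Y-linked reads, 57.1 FPKM in all against at most 0.0527 FPKM in the others. No VO LV library can therefore hold the same animals as VO RV replicate 3. In sham, replicates 1 and 2 of both ventricles had 64.7 to 65.6 FPKM and replicate 3 of both had 0 FPKM. Y-linked reads were thus even between the sham ventricles but not between the VO ventricles. VO RV replicate 1 correlated more closely with each VO LV library (Pearson's r of log2 values across genes 0.974 to 0.979) than with VO RV replicates 2 and 3 (0.964 and 0.971). VO RV replicate 3 had an r of 0.979, 0.970 and 0.972 with sham LV replicates 1, 2 and 3, against 0.971 and 0.961 with VO RV replicates 1 and 2. Genes are not independent replicates, so these r values are descriptions. Where leaving out one VO library moved the difference of a gene described without overlap, or of a gene whose values turn on one library, by over 1.5 times, that value is given as well.

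**Figure D1:**
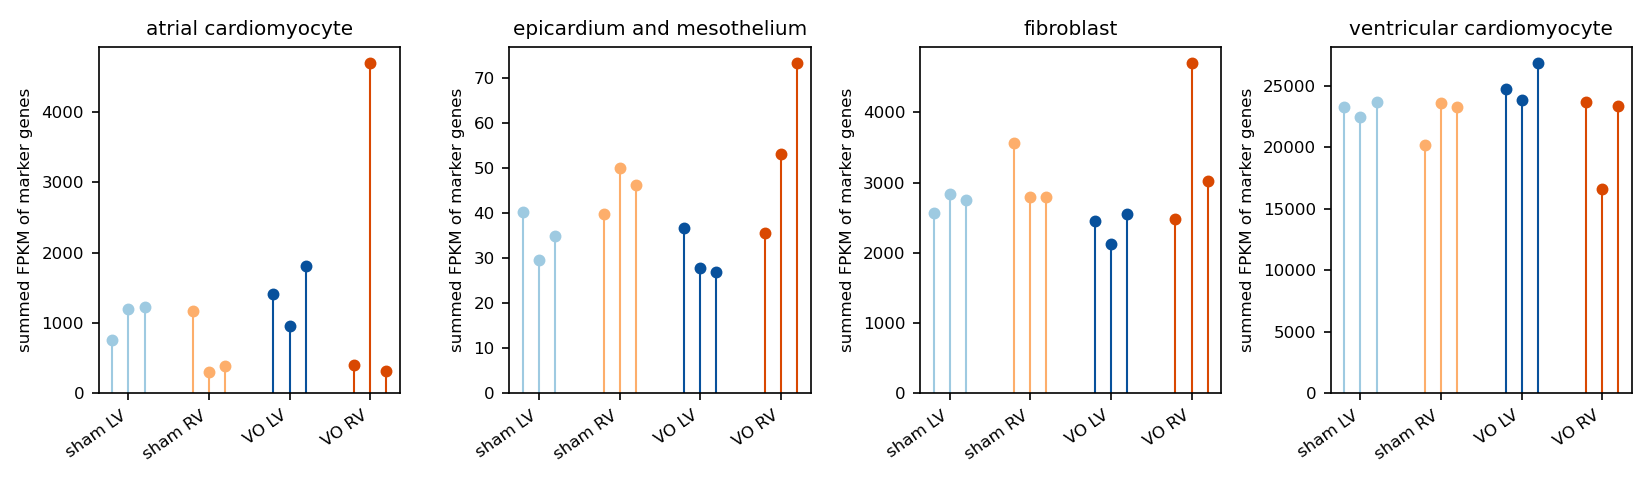
Summed FPKM of 4 sets of cell type markers in each of the 12 libraries, with a point and a stem per library and the replicates 1 to 3 from left to right in each group. VO RV replicate 2 reached 4689 FPKM of atrial markers, of which Nppa was 3037 FPKM. The epicardial sum was 35.7 to 73.3 FPKM in VO RV and 26.9 to 36.8 FPKM in VO LV.

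Hand1 was the single differentially expressed gene (DEG) between VO LV and VO RV. A DEG needed a Benjamini-Hochberg adjusted p under 0.05 from limma and a fold change over 1.3, which 1 of 13910 genes met (0.00719%). Without adjustment, 1030 genes (7.4%) had a p under 0.05 with the same fold change, 535 higher in the LV (3.85%) and 495 lower (3.56%). The 3 VO LV libraries lay wholly above the 3 VO RV libraries for 1175 genes (8.45%) and wholly below them for 1070 (7.69%). With 3 libraries against 3, an exact two-sided permutation test of a single gene cannot go below 0.10, and that p was 0.10 for Hand1. The number of DEGs rested on VO RV replicate 1: without it there were 48, of which 27 were higher and 21 lower in the LV, and 1590 genes passed without adjustment. All genes other than Hand1 are therefore given as values below, with their unadjusted and adjusted p from limma where they are described in full.

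**Figure D2:**
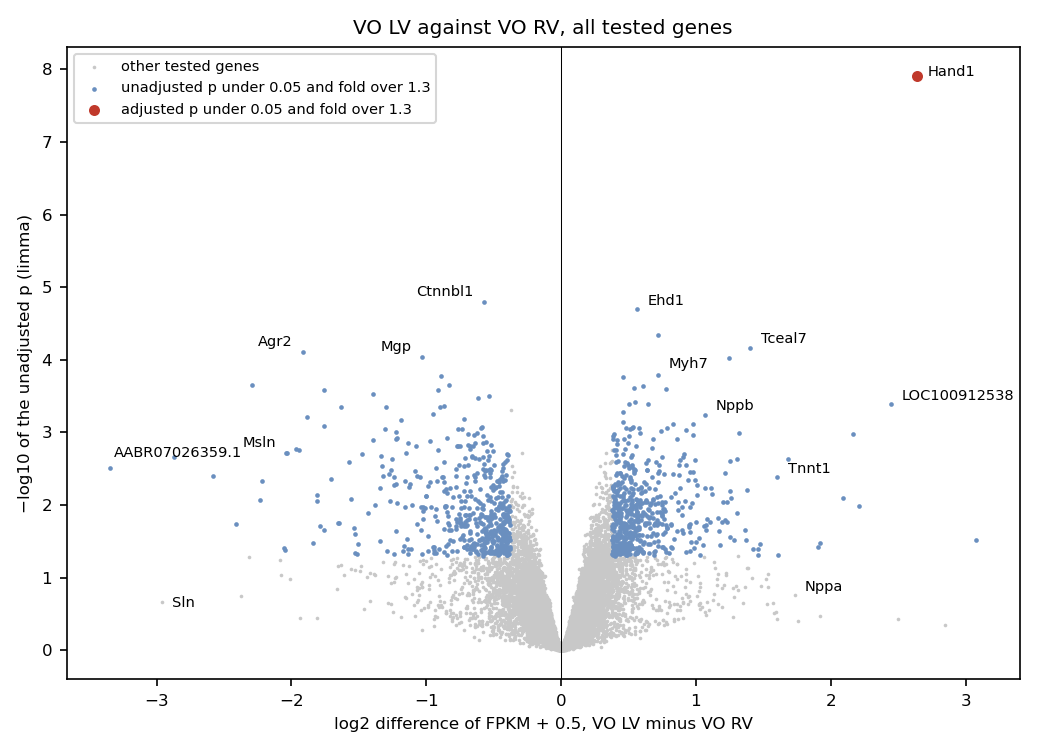
Each of the 13910 tested genes by its log2 difference of FPKM + 0.5 between VO LV and VO RV (x axis) and the −log10 of its unadjusted p from limma (y axis), with the one DEG in red and the genes that passed only without adjustment in blue. Hand1 stands alone at a log2 difference of 2.64, and the other genes fall on both sides in like numbers (535 and 495 in blue or red).

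Hand1 encodes a basic helix-loop-helix transcription factor of the developing LV, and its gene (ENSRNOG00000002582) is listed on chromosome 10 from 43250745 to 43253296 on the minus strand. It was 5.21, 4.10 and 4.71 FPKM in the VO LV libraries and 0.318, 0.317 and 0.345 FPKM in the VO RV libraries. Every VO LV library was far above every VO RV library, and the VO RV values rested on 5, 6 and 6 reads against 72 to 89 reads in VO LV. On the log2(FPKM + 0.5) scale Hand1 was 2.64 higher in VO LV (SE 0.18, adjusted p = 0.000171 from limma, 6.24-fold on that scale). The pseudocount understates a change at this level, and with a pseudocount of 0.1 the log2 difference was 3.48. Leaving out each library in turn gave 2.57 to 2.72, and Hand1 was a DEG each time. In the sham libraries it was 2.58, 2.10 and 3.48 FPKM in the LV and 0.802, 1.13 and 1.21 FPKM in the RV, a log2 difference of 1.04 (adjusted p = 0.0319 from limma).

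The promoters of Hand1, of the load-responsive gene Nppb and of the slow troponin gene Tnnt1 are shown because these 3 genes had LV values wholly above the RV values under VO and encode a regulator, a secreted peptide and a structural protein. Each is the RefSeq sequence of GRCr8 from 250 bases before to 50 after the start of the gene, read 5′ to 3′ on the strand of the gene, at chr10:42509635-42509934 (minus strand), chr5:163699758-163700057 (plus strand) and chr1:78348785-78349084 (plus strand). Capitals mark matches, on either strand, to TATAAA and TATATA (forms of the TATA box), AGATAA (bound by GATA factors), CATTCC (the MCAT site of TEAD factors) and CATCTG (an E-box of the kind that HAND proteins bind with their partners), and none of the marked matches overlap.
Hand1: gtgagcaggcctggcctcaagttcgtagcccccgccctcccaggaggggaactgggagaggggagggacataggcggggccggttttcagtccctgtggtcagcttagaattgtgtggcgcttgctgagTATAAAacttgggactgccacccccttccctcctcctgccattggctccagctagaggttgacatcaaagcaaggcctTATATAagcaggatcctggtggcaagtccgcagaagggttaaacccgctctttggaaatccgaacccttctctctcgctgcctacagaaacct
Nppb: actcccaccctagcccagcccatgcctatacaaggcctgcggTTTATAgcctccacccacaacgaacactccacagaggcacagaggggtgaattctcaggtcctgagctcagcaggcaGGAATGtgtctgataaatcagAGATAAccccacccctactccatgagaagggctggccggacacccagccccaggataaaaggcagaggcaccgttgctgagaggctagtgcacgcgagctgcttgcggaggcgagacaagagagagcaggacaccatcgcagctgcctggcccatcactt
Tnnt1: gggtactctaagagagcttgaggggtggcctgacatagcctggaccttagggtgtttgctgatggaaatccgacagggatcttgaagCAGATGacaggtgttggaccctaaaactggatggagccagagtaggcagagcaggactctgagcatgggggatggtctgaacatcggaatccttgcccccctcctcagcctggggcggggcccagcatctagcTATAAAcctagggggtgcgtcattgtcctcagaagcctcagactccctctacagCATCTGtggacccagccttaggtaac
The Hand1 window held TATAAA at 121 and TATATA at 43 bases before the start. The Nppb window held AGATAA at 110 bases and, on the opposite strand, CATTCC at 131 and TATAAA at 208 bases before the start. The Tnnt1 window held TATAAA at 30 bases before the start and CATCTG once on each strand, at 163 bases before the start and from base 25 after it. Of 33469 RefSeq promoter windows of this length, 14.2% held TATAAA, 6.15% TATATA, 11.6% AGATAA, 14.2% CATTCC and 16.6% CATCTG. These matches describe the letters of the windows and not the binding of any factor.

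Among the other chamber and cardiac transcription factors, differences were small beside that of Hand1. Of 33 tested, Hand1 included, 7 were higher and 1 was lower in VO LV at the unadjusted p, against 3.85% and 3.56% of all tested genes. The median log2 difference of the 33 was 0.14, against 0.005 over all tested genes. Hand2, the paralog that serves the RV in the embryo, was 16.5, 14.9 and 13.2 FPKM in VO LV and 14.99, 17.4 and 19.6 FPKM in VO RV, groups that overlapped (log2 difference −0.22, adjusted p = 0.730 from limma). Irx1, a homeobox gene of the ventricular septum and trabeculae, was 1.87, 1.18 and 4.57 FPKM in VO LV and 1.06, 0.642 and 0.649 FPKM in VO RV. Its groups did not overlap, but 1 VO LV library held most of the difference (1.10, adjusted p = 0.351 from limma, and 0.66 without VO LV replicate 3). The other Irx genes gave log2 differences of 0.96 for Irx2 (0.51 when VO LV replicate 3 was left out, and 0.63 when VO RV replicate 2 was), 0.37 for Irx4 (0.11 without VO RV replicate 2), −0.10 for Irx3 and −0.47 for Irx5. The last 2 turned positive without VO LV replicate 2, at 0.65 and 0.36. They reached −0.60 and −1.06 at the other end when each library was left out in turn. Tbx18, a factor of the epicardium and sinus node, was the member that was lower in VO LV at the unadjusted p (4.37, 3.55 and 3.30 FPKM against 5.13, 6.80 and 7.23 FPKM, log2 difference −0.69). Myocd, a coactivator of serum response factor in muscle, had a difference of 0.53 with no overlap, and Mef2d one of 0.43. Tbx20 was 37.3 to 59.4 FPKM in VO LV and 25.0, 52.2 and 12.7 FPKM in VO RV, with VO RV replicate 2 inside the LV range (log2 difference 0.86). Its difference was 1.37 without that library and 0.36 without VO RV replicate 3. The core factors Gata4 (0.07), Nkx2-5 (0.18), Mef2c (0.07) and Tbx5 (−0.11) overlapped between the ventricles.

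Among the natriuretic peptides, Nppb had higher values in VO LV and Nppc had higher values in VO RV. Nppb, the B-type peptide released on stretch, was 357, 325 and 427 FPKM in VO LV and 160, 226 and 147 FPKM in VO RV. All LV values were above all RV values (log2 difference 1.07, SE 0.23, unadjusted p = 0.000567, adjusted p = 0.239 from limma). Nppa, the A-type peptide that atria make in the largest amount, was 1073, 610 and 1423 FPKM in VO LV and 113, 3037 and 73.3 FPKM in VO RV. The value of 3037 FPKM belonged to VO RV replicate 2. Other atrial markers were also highest in that library, such as Myl7 (463 FPKM against 34.5 to 75.5 FPKM in the other VO libraries) and Bmp10 (72.4 FPKM against at most 0.133 FPKM). With it the log2 difference was 1.73 (adjusted p = 0.609 from limma), and without it the difference was 3.42 (adjusted p = 0.301 from limma). The difference was 1.05 without VO RV replicate 1 and 0.73 without VO RV replicate 3. With the mean level of Myl7, Sln, Bmp10 and Myl4 as a covariate, Nppa was a DEG (log2 difference 3.10, adjusted p = 0.0197 from limma). Nppc, the C-type peptide of endothelial cells, went the other way at low levels, with 0.728, 0.177 and 0.460 FPKM in VO LV and 2.04, 2.57 and 2.56 FPKM in VO RV (−1.64). The clearance receptor Npr3 was 4.33, 0.914 and 8.06 FPKM in VO LV and 6.47, 20.7 and 9.17 FPKM in VO RV, and Corin, the protease that activates the A-type peptide, was 2.97 to 5.83 FPKM against 3.97 to 12.6 FPKM. Both overlapped between the ventricles, with the highest value of each in VO RV replicate 2, and their log2 differences of −1.54 and −0.77 were −1.08 and −0.38 without it. Npr3 had −0.81 without VO LV replicate 2, and Corin −1.16 without VO RV replicate 3. Npr1, the receptor of the A- and B-type peptides, had a difference of 0.01.

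**Figure D3:**
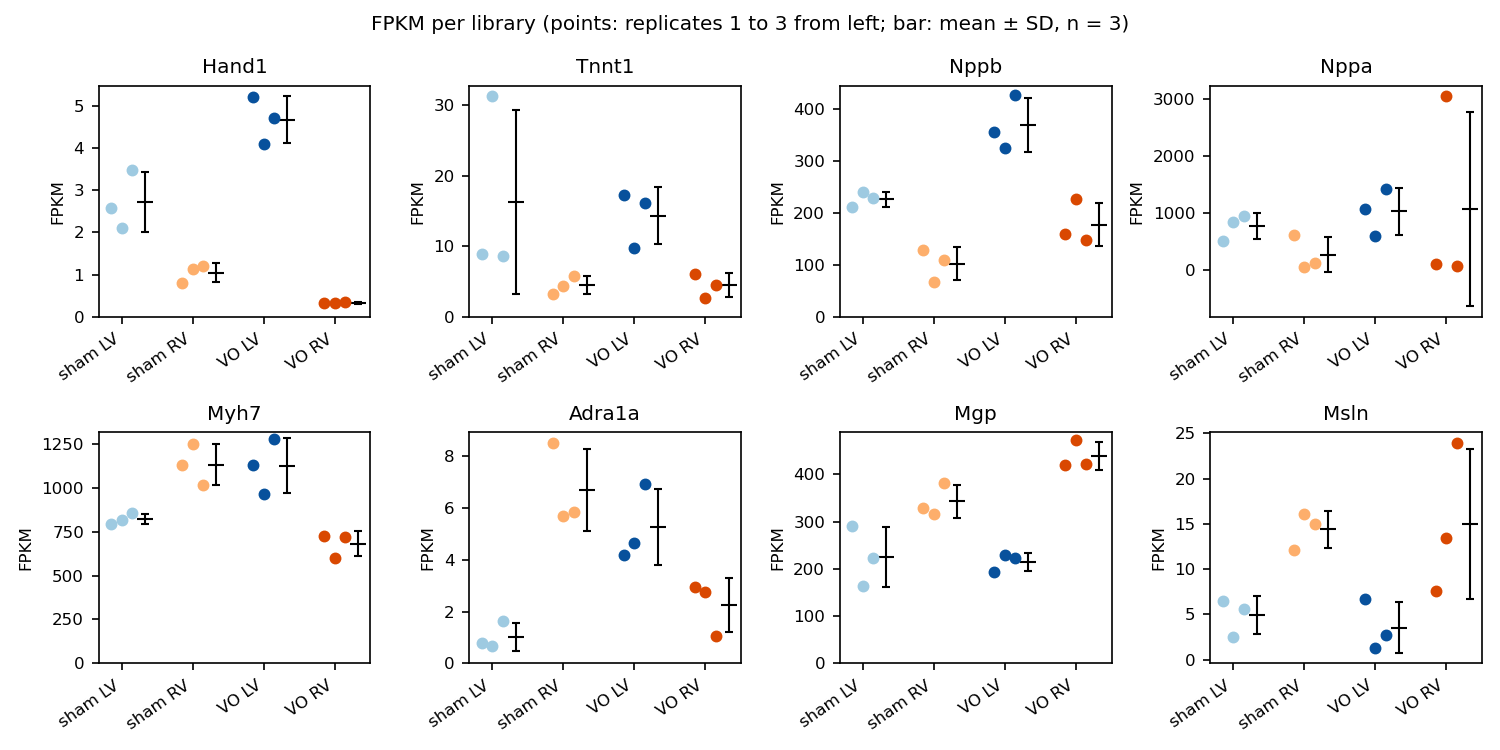
FPKM of 8 genes in the 12 libraries, with a point per library and the mean ± SD of each group (n = 3) beside the points. Hand1 and Nppb were higher in every VO LV than in every VO RV library, Mgp and Msln were lower, and Nppa in VO RV replicate 2 (3037 FPKM) lay above every other library.

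Of 27 load and stretch genes tested, 8 were higher and 2 were lower in VO LV at the unadjusted p, against 3.85% and 3.56% of all tested genes, with a median log2 difference of 0.22. Acta1, skeletal alpha-actin, which returns in loaded myocardium, was 2977, 2640 and 3274 FPKM in VO LV and 2039, 1502 and 1966 FPKM in VO RV, without overlap (0.70, adjusted p = 0.281 from limma). Fhl1, a LIM protein of the stretch sensor at titin, was 201, 196 and 259 FPKM against 163, 166 and 153 FPKM (0.43). Ctgf, a matrix-associated growth factor, was 35.1 to 51.4 FPKM in VO LV and 58.1 to 87.9 FPKM in VO RV (−0.72), so its libraries also did not overlap.

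Of 38 tested sarcomere and Z-disc genes, 11 were higher and 0 were lower in VO LV at the unadjusted p from limma (3.85% and 3.56% of all tested genes), 34 had a positive difference (7091 of 13910 over all tested genes), and the median was 0.26 (0.20 without VO RV replicate 2). None was a DEG. Myh7, the slow beta-myosin heavy chain, was 1131, 966 and 1280 FPKM in VO LV and 725, 598 and 720 FPKM in VO RV, with no overlap. Its log2 difference was 0.72 (SE 0.13, unadjusted p = 0.000160, adjusted p = 0.203 from limma). Myh6, the fast alpha-myosin heavy chain, was 2311, 2041 and 2787 FPKM against 1916, 1762 and 1718 FPKM (0.39), also without overlap. Tnnt1, the slow skeletal troponin T, was 17.2, 9.77 and 16.1 FPKM against 6.14, 2.69 and 4.56 FPKM, the largest log2 difference of a contractile gene named here (1.60, adjusted p = 0.257 from limma). Smyd1, a muscle methyltransferase needed for thick filament assembly, was 57.3, 63.1 and 98.2 FPKM in VO LV and 48.9, 37.3 and 23.3 FPKM in VO RV (1.01). Nrap, a scaffold of growing myofibrils, had a difference of 0.53 and was a DEG without VO RV replicate 1 (adjusted p = 0.0343 from limma). The troponin I switch genes did not separate the ventricles: the fetal form Tnni1 was 754 to 771 FPKM in VO LV and 615 to 980 FPKM in VO RV (−0.12), and the adult form Tnni3 was 2319 to 2927 FPKM and 1759 to 3041 FPKM (0.06). The ventricular light chain Myl2 overlapped as well (0.27), with its lowest value, 533 FPKM, in VO RV replicate 2. Its difference was −0.05 when that library was left out and 0.49 when VO RV replicate 1 was.

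Over all tested genes 3.85% were higher and 3.56% lower in VO LV at the unadjusted p, and genes of calcium handling, excitability and adrenergic signaling are given against these shares. Of 32 calcium-handling genes, 4 were higher and 0 lower at the unadjusted p from limma (median 0.11). They included Ryr2, the calcium release channel, at 34.9, 43.5 and 52.3 FPKM in VO LV and 29.9, 29.2 and 21.7 FPKM in VO RV (0.68). Jph2, which holds the sarcoplasmic reticulum to the T-tubule, was 124, 142 and 185 FPKM against 106, 87.9 and 48.3 FPKM (0.94, and 0.61 without VO RV replicate 3). The calcium pump gene Atp2a2 overlapped between the ventricles, with 853, 830 and 1044 FPKM against 839, 722 and 521 FPKM (0.41, and 0.21 without VO RV replicate 3), and so did its inhibitor Pln (0.21, and 0.01 without VO RV replicate 2). Of 32 channel, pump and gap junction genes, 9 were higher and 2 were lower (median 0.21). Scn4b, a beta subunit of the sodium channel, had a difference of 1.21 and Kcnj2, a subunit of the inward rectifier, one of 0.77, each without overlap. Hcn4, the pacemaker channel, was 1.15, 0.513 and 1.76 FPKM in VO LV and 3.64, 3.81 and 2.22 FPKM in VO RV (−1.23, unadjusted p = 0.000982, adjusted p = 0.239 from limma). Of 36 adrenergic, muscarinic and cyclic nucleotide genes, 7 were higher and 4 were lower (median 0.19), so that this list held members on both sides. Adra1a, the alpha-1A receptor, was 4.19, 4.67 and 6.93 FPKM against 2.96, 2.76 and 1.07 FPKM (1.11). The beta-1 receptor Adrb1 was 17.1, 15.4 and 19.4 FPKM in VO LV and 14.3, 11.98 and 9.77 FPKM in VO RV (0.52).

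The genes of the insulin receptor (Insr), the thyroid hormone receptor alpha (Thra) and the lipid enzyme Acsl1 were not DEGs between VO LV and VO RV. Insr was 8.55, 10.9 and 12.4 FPKM in VO LV and 8.20, 8.82 and 6.91 FPKM in VO RV. The lowest VO LV library lay inside the VO RV range (log2 difference 0.38, SE 0.15, unadjusted p = 0.0276, adjusted p = 0.385 from limma). Thra was 47.5, 47.4 and 46.4 FPKM against 45.4, 42.1 and 37.5 FPKM, without overlap but with a log2 difference of only 0.18 (adjusted p = 0.511 from limma, and 0.10 without VO RV replicate 3). Acsl1, which activates long-chain fatty acids, was 136, 145 and 165 FPKM against 134, 107 and 101 FPKM (0.39, adjusted p = 0.333 from limma), with a gap of little more than 1 FPKM between VO LV replicate 1 and VO RV replicate 1. Of 54 insulin and IGF genes, 5 were higher and 3 were lower at the unadjusted p, in all 14.8% against 7.4% of all tested genes (median 0.19, and 0.10 without VO RV replicate 3). On the RV side, Igfbp5, an IGF-binding protein, was 48.7 to 78.3 FPKM in VO LV and 93.9 to 125 FPKM in VO RV (−0.71), and the growth factor Igf2 54.1 to 84.8 FPKM against 85.6 to 120 FPKM (−0.58). The receptor substrates Irs1 and Irs2 overlapped (0.07 and 0.15), as did the insulin-regulated glucose transporter Slc2a4 (0.26) and Igf1r (0.31). Of 31 genes of thyroid hormone action, 2 were higher and 1 was lower (median 0.14), in all 9.68%, near the 7.4% of all tested genes. Thrb, the beta receptor, had a difference of 0.44 (0.23 without VO RV replicate 3) with low levels in both ventricles, 2.86 to 3.18 FPKM and 1.46 to 2.80 FPKM. Klf9, a thyroid hormone target, was 13.8 to 17.8 FPKM against 7.79 to 13.2 FPKM (0.55, and 0.36 without VO RV replicate 3).

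Lists of energy metabolism held from 2.47% to 25% of members past the unadjusted p, against 7.4% of all tested genes. Among AMPK family kinases and mitochondrial regulators, 9 of 36 were higher and 0 were lower at the unadjusted p from limma (median 0.11). Prkaa2, the AMPK catalytic subunit of muscle, was 11.2, 12.2 and 21.8 FPKM in VO LV and 7.55, 7.84 and 2.78 FPKM in VO RV (1.3, adjusted p = 0.333 from limma, and 0.86 without VO RV replicate 3). Ppargc1b, a coactivator of mitochondrial genes, had a difference of 0.53 and Ppard, a fatty acid-sensing nuclear receptor, one of 0.42, each without overlap. In fatty acid and ketone use, 8 of 42 genes were higher and 1 was lower (median 0.20). The fatty acid transporter Cd36 was 27.4, 29.5 and 29.5 FPKM against 22.5, 19.0 and 20.7 FPKM (0.47), the lipase Lpl 175 to 198 FPKM against 112 to 164 FPKM (0.47), and Bdh1, an enzyme of ketone use, 1.67 to 2.59 FPKM against 0.538 to 1.13 FPKM (0.91). In glucose use, 6 of 33 genes were higher and 0 lower (median 0.22). They included Hk2, the hexokinase of muscle (8.72 to 11.6 FPKM against 3.24 to 7.14 FPKM, 0.81, and 0.48 without VO RV replicate 3), and the lactate exporter Slc16a3 at 16.5, 14.999 and 15.8 FPKM in VO LV and 11.2, 10.5 and 8.17 FPKM in VO RV (0.65). Pdk4, which holds pyruvate back from oxidation, was 30.9 to 41.1 FPKM against 8.86 to 25.7 FPKM (1.02, and 0.58 without VO RV replicate 3). In the citrate cycle, 4 of 22 were higher and 0 lower (median 0.14), among them Sdha (0.46), a subunit of succinate dehydrogenase. The 81 tested nuclear genes of the respiratory chain had a median of 0.11 that was −0.05 without VO RV replicate 2, and 2 of them were higher.

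Many epicardial, fibroblast and matrix genes had higher values in VO RV, and over all tested genes 3.56% were lower in VO LV at the unadjusted p. Of 9 tested epicardial and mesothelial markers, 0 were higher and 6 were lower in VO LV at the unadjusted p from limma. The median was −1.28, and it was −1.49, −1.21 and −0.90 without VO RV replicate 1, 2 and 3. Msln, a surface protein of mesothelium, was 6.66, 1.27 and 2.68 FPKM in VO LV and 7.57, 13.5 and 23.9 FPKM in VO RV (−2.03, SE 0.51, adjusted p = 0.250 from limma). Upk3b, a membrane protein of mesothelial cells, was 0.304 to 1.51 FPKM against 2.43 to 7.42 FPKM (−1.94), and Upk1b 0.0325 to 0.634 FPKM against 0.943 to 4.17 FPKM (−1.58). Not all markers of the layer took part: Wt1 (11.3 to 14.2 FPKM and 11.3 to 15.3 FPKM, −0.03) and Aldh1a2 (−0.17), both also made by other cells of the heart, overlapped. In bulk tissue, more cells of a type and more RNA per cell cannot be told apart.

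Of 10 fibroblast markers, 6 were lower in VO LV (median −0.52) and of 40 matrix genes 13 were lower and 1 was higher (median −0.37). Mgp, an inhibitor of calcification made by vascular and stromal cells, is in neither list and had one of the smallest p of all genes. It was 193, 229 and 223 FPKM in VO LV and 420, 473 and 423 FPKM in VO RV (−1.03, SE 0.17, unadjusted p = 9.24e-05, adjusted p = 0.166 from limma), and it was a DEG without sham LV replicate 2 (adjusted p = 0.0407). Postn, a matricellular protein of activated fibroblasts, was 226, 168 and 251 FPKM against 288, 614 and 320 FPKM (−0.86, and −0.52 without VO RV replicate 2). Timp1, an inhibitor of matrix proteases, was 14.4 to 19.6 FPKM against 20.1 to 35.1 FPKM (−0.72), and it was a DEG without VO RV replicate 1 (adjusted p = 0.0384 from limma). The fibrillar collagens were highest in VO RV replicate 2: Col1a1 was 463 to 506 FPKM in VO LV and 470, 1159 and 645 FPKM in VO RV (−0.53), and Col3a1 988 to 1193 FPKM against 1206, 2161 and 1381 FPKM (−0.46). Without that library the 2 differences were −0.17 and −0.21, the median of the matrix genes was −0.05 and that of the fibroblast markers −0.25, and 7 matrix genes and 3 fibroblast markers passed the unadjusted p in limma. The matrix median was −0.60 and Col1a1 had −0.82 without VO RV replicate 1. Dcn, Dpt and Tcf21 among the fibroblast markers had differences of −0.56, −0.56 and −0.50, which were −0.44, −0.45 and −0.28 without VO RV replicate 2. Col4a2, a basement membrane collagen of vessels and muscle, was the matrix gene that was higher in VO LV (361 to 379 FPKM against 258 to 309 FPKM, 0.39). Summed macrophage markers were 127 to 173 FPKM in VO LV and 135 to 204 FPKM in VO RV. All 14 of these markers had a negative difference (6819 of 13910 over all tested genes), with a median of −0.35. At the unadjusted p 2 were lower in VO LV, the complement gene C1qb (8.74, 9.07 and 8.82 FPKM against 12.4, 16.2 and 16.6 FPKM, −0.72) and the endotoxin receptor Cd14 (−0.67, and −0.42 without VO RV replicate 2). Of the 14, 11 passed the unadjusted p in limma without VO RV replicate 1, where the count over all genes rose from 1030 to 1590.

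Several lists held members past the unadjusted p at about the rate of all genes or under it. Among 53 cell cycle genes, 1 was higher, Ccnd2, a cyclin of the G1 phase (64.3, 80.7 and 116 FPKM against 49.96, 51.7 and 22.03 FPKM, 1.12, and 0.72 without VO RV replicate 3), and the median was −0.06. Of 30 interferon and antigen presentation genes and of 18 clock genes, 0 passed the unadjusted p with the fold change in limma. The 86 cytosolic ribosomal protein genes had a median of −0.17, with 74 negative differences (6819 of 13910 over all tested genes), and 1 was higher and 1 lower. That median was −0.26 without VO RV replicate 2 and −0.09 without VO RV replicate 3, with 5 and 0 genes past the unadjusted p in limma. The shares for endothelial growth and guidance factors (3 of 41), heat shock proteins (1 of 29), immediate early genes (1 of 30) and splicing regulators (3 of 32) were also near 7.4% or under it. Endothelial (0 of 14), mural (0 of 10) and nerve (0 of 6) markers held no member past the unadjusted p in limma, and the conduction system (1 of 5) and red blood cells (1 of 9) held 1 each. Rbm20, a splicing regulator of titin, was 33.8 to 36.6 FPKM in VO LV and 24.0 to 32.0 FPKM in VO RV (0.40), and it was a DEG without VO RV replicate 1 (adjusted p = 0.0471 from limma). Of 30 genes of the desmosome, intercalated disc and dystrophin complex, 3 were higher and 0 lower in the same test (median 0.22), and the plaque protein gene Dsp had a difference of 0.52 with 1 RV value inside the LV range.

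**Figure D4:**
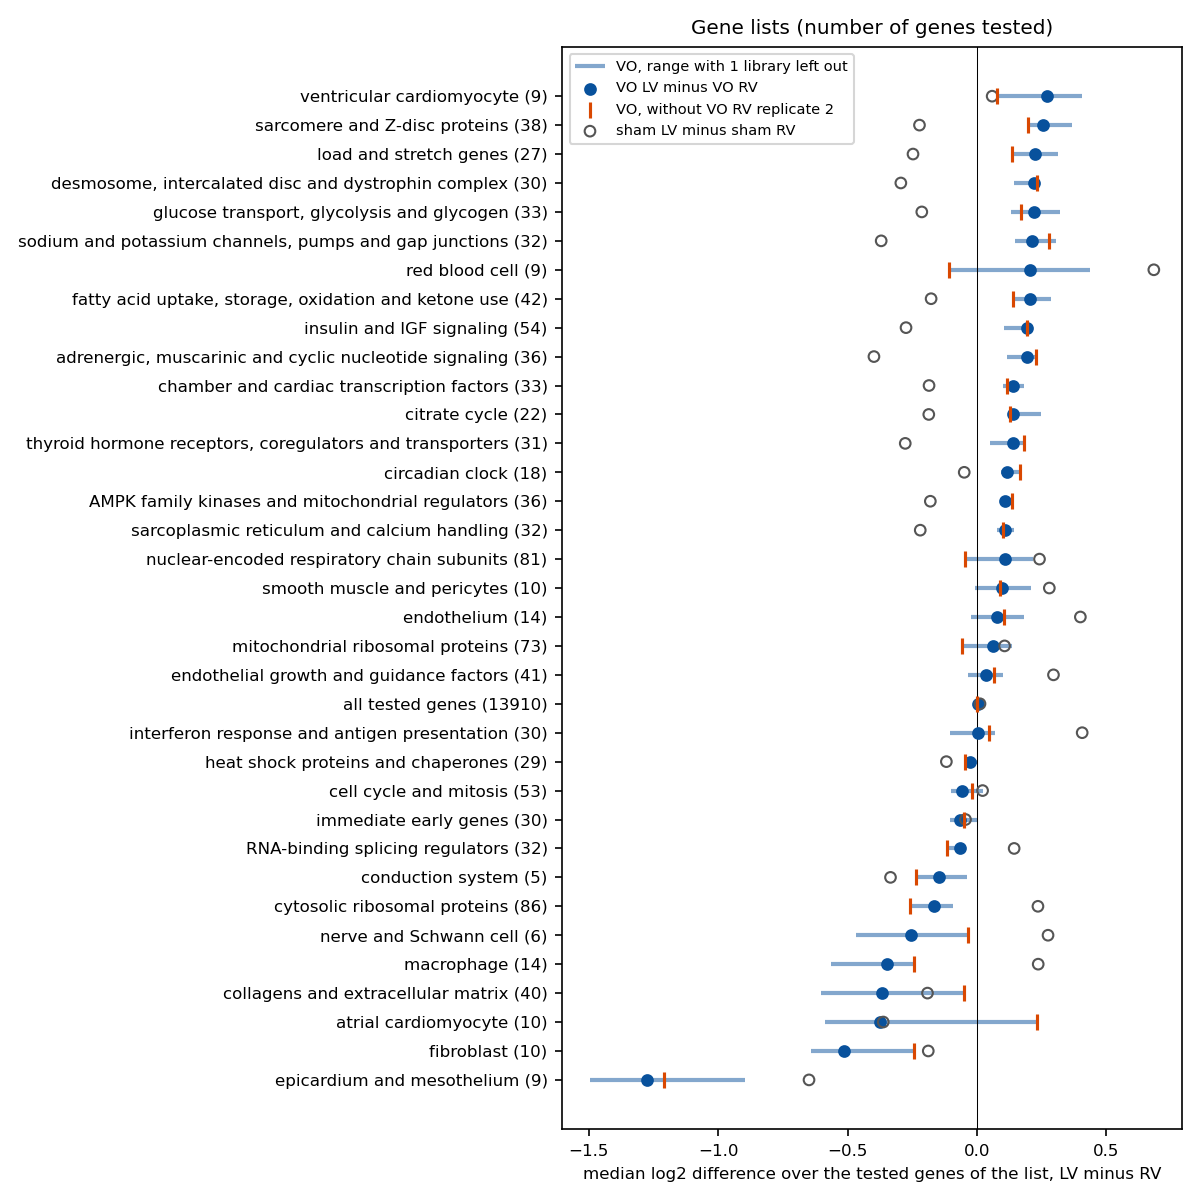
Median log2 difference, LV minus RV, over the tested genes of each list, for VO (filled points, with a line for the range when each library is left out in turn and an orange tick for the value without VO RV replicate 2) and for sham (open points). The sarcomere list lies at 0.26 under VO and −0.22 under sham, the adrenergic list at 0.19 and −0.40, and the epicardial list at −1.28 and −0.65.

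The medians of several lists, and their counts of genes past the unadjusted p in limma, rested on single VO libraries. The count went, without VO RV replicate 3, from 11 to 5 for sarcomere genes, from 4 to 2 for calcium handling, from 11 to 6 for adrenergic and cyclic nucleotide genes, from 8 to 2 for insulin and IGF genes and from 3 to 1 for thyroid hormone action. It went from 9 to 5 for AMPK and mitochondrial regulators, from 9 to 6 for fatty acid and ketone use, from 6 to 3 for glucose use, from 4 to 0 for the citrate cycle, and from 3 to 0 for the desmosome list. Over all genes it went from 1030 to 721. When VO RV replicate 1 was left out the count was 15 for fatty acid and ketone use, 12 for glucose use and 7 for the citrate cycle. It was 6 for the respiratory chain, 5 for thyroid hormone action, 5 for the desmosome list and 1590 over all genes. When VO RV replicate 2 was left out the count was 13 for insulin and IGF genes, 4 for glucose use and 7 for splicing regulators. It was 5 for the desmosome list, 0 for endothelial growth and guidance factors and 1143 over all genes. Without VO RV replicate 3, the median was 0.12 for adrenergic and cyclic nucleotide genes, 0.10 for insulin and IGF genes, 0.13 for glucose use, 0.14 for the desmosome list and 0.06 for thyroid hormone action. Without VO LV replicate 3 it was 0.12 for insulin and IGF genes, 0.13 for load and stretch genes and 0.05 for thyroid hormone action, and without VO LV replicate 1 it was 0.09 for the last. Without VO RV replicate 2 it was 0.14 for load and stretch genes and 0.08, against 0.27, for the ventricular cardiomyocyte markers. Without VO RV replicate 1 it was 0.25 for the citrate cycle, 0.41 for the ventricular markers and −0.56, against −0.35, for the macrophage markers. The respiratory chain median ranged from −0.05 to 0.22 when each library was left out in turn. The medians of some other lists near 0, such as the cell cycle (−0.10 to 0.02), interferon (−0.10 to 0.07), endothelium (−0.02 to 0.18) and red blood cells (−0.11 to 0.44), also changed sign.

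The smallest p values after Hand1 belonged to genes outside these lists, with the exception of Myh7 among the first 12. Ctnnbl1, a spliceosome-associated protein, was 14.5, 13.2 and 13.6 FPKM in VO LV and 19.3, 20.5 and 22.3 FPKM in VO RV (−0.57, unadjusted p = 1.59e-05, adjusted p = 0.0929 from limma). Ehd1, a protein of endosome recycling, was 99.8, 92.2 and 95.2 FPKM against 70.6, 61.4 and 61.9 FPKM (0.56, adjusted p = 0.0929 from limma). The potassium-chloride cotransporter gene Slc12a7 (0.72), Tceal7 on chromosome X (146, 120 and 137 FPKM against 76.1, 32.1 and 52.2 FPKM, 1.40) and Klhdc8b (0.46) were above in all VO LV libraries, and Agr2, a disulfide isomerase of secretory epithelium, was below (0.278, 0.0772 and 0.488 FPKM against 2.20, 3.04 and 1.99 FPKM, −1.92). Ctnnbl1, Ehd1, Slc12a7, Tceal7 and Klhdc8b were DEGs without VO RV replicate 1.

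By size, among protein-coding genes with a mean of at least 1 FPKM over the 6 VO libraries and no overlap, the largest positive differences included, after Hand1, those of LOC100912538 (centrin-3-like, 2.45), LOC100909750 (ABL1-like, 2.17) and Tnnt1. The largest negative ones were those of AABR07026359.1 (−3.35), LOC100911746 (B9 domain-containing protein 1-like, −2.58), AABR07029863.1 (−2.05), Msln and Wfdc21 (−1.97). The 3 genes described as like another gene may share reads with that gene and are uncertain. AABR07026359.1 was 0.195 to 0.442 FPKM in VO LV and 25.6, 0.601 and 19.4 FPKM in VO RV, so that 1 RV library lay near the LV level. AABR07029863.1, of 57 bases, rested on 0 to 1 read per VO LV library and 2 to 6 per VO RV library. Among the 12 smallest p were 2 small nucleolar RNA genes, SNORD47 (30.1, 36.3 and 24.8 FPKM against 58.5, 47.9 and 63.2 FPKM, −0.89) and SNORD19B, which had at most 1 read in each VO LV library and 4 to 6 in each VO RV library. Of 216 tested small nucleolar RNA genes, 2 were higher and 17 were lower in VO LV (median −0.24), in all 8.8% against 7.4% of all tested genes, and these libraries were made from polyadenylated RNA. An unnamed protein-coding gene, AABR07062799.2, was 5.16 to 6.27 FPKM against 1.78 to 2.51 FPKM (1.24), and it was a DEG without VO RV replicate 1 (adjusted p = 0.0492 from limma).

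The LV minus RV difference under VO was set against that of the sham groups, which shares no library with it. Between sham LV and sham RV, 536 genes were DEGs (3.85%), and of these 157 had the same sign under VO. Of the 1030 genes past the unadjusted p under VO, 389 had the same sign in sham, and of those that also passed it in sham, 95 had the same sign and 319 the opposite. The share of all tested genes that kept their sign was not counted, so these counts have no background beside them. The change itself, the VO difference minus the sham difference, was called for 583 genes (4.19%) with the same thresholds. For Hand1 the sign was the same and the difference was larger under VO, by 1.60 on the log2 scale (SE 0.26, adjusted p = 0.0249 from limma). Nppb kept its size, with a sham difference of 1.20 and a change of −0.13, and so did Tceal7 (1.46 and −0.06) and Tnnt1 (1.51 and 0.09). On the RV side, Hcn4 (−1.80 in sham), Agr2 (−1.29), Igfbp5 (−0.75) and Mgp (−0.64) had negative differences in both states.

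Several contractile, receptor and metabolic genes had opposite signs in the 2 states, while others, such as Tnnt1, Acta1 (0.23 in sham) and Cd36 (0.06), had the same sign. Myh7 was 796, 815 and 857 FPKM in sham LV and 1132, 1251 and 1018 FPKM in sham RV, a log2 difference of −0.46, and the change was 1.18 (adjusted p = 0.0249 from limma). Adra1a had a sham difference of −2.27 and a change of 3.39, Prkaa2 −2.28 and 3.58, Smyd1 −1.67 and 2.68, Jph2 −1.51 and 2.45, and Kcnj2 −1.66 and 2.43. Insr was 5.42, 5.11 and 6.43 FPKM in sham LV and 12.3, 10.6 and 9.55 FPKM in sham RV (−0.88, change 1.26, adjusted p = 0.0249 from limma). Acsl1 had −0.55 and 0.94 (adjusted p = 0.0317), while the change of Thra, 0.53, had an adjusted p of 0.0535 from limma. Several list medians also differed in sign, with −0.22 in sham and 0.26 under VO for sarcomere genes, −0.40 and 0.19 for adrenergic and cyclic nucleotide genes, and −0.27 and 0.19 for insulin and IGF genes, while the respiratory chain list had 0.24 and 0.11. The calls of the change depended on single libraries: it was called for 0 genes without sham LV replicate 1 or 2, sham RV replicate 1 or VO LV replicate 2 or 3, where 2381 to 3172 genes still passed the unadjusted p in limma, and for 4 without sham RV replicate 2. Without VO LV replicate 1 it was called for 239 genes, without VO RV replicate 3 for 115, and without VO RV replicate 1 or 2 for 1003 or 926. The DEGs between the sham ventricles numbered 0 without sham RV replicate 1 (1821 unadjusted in limma), 3 and 1 without sham LV replicate 1 and 2, 4 without sham RV replicate 2, 185 without sham RV replicate 3, 5 and 173 without VO LV replicate 2 and 1, and 872 without VO RV replicate 3.

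**Figure D5:**
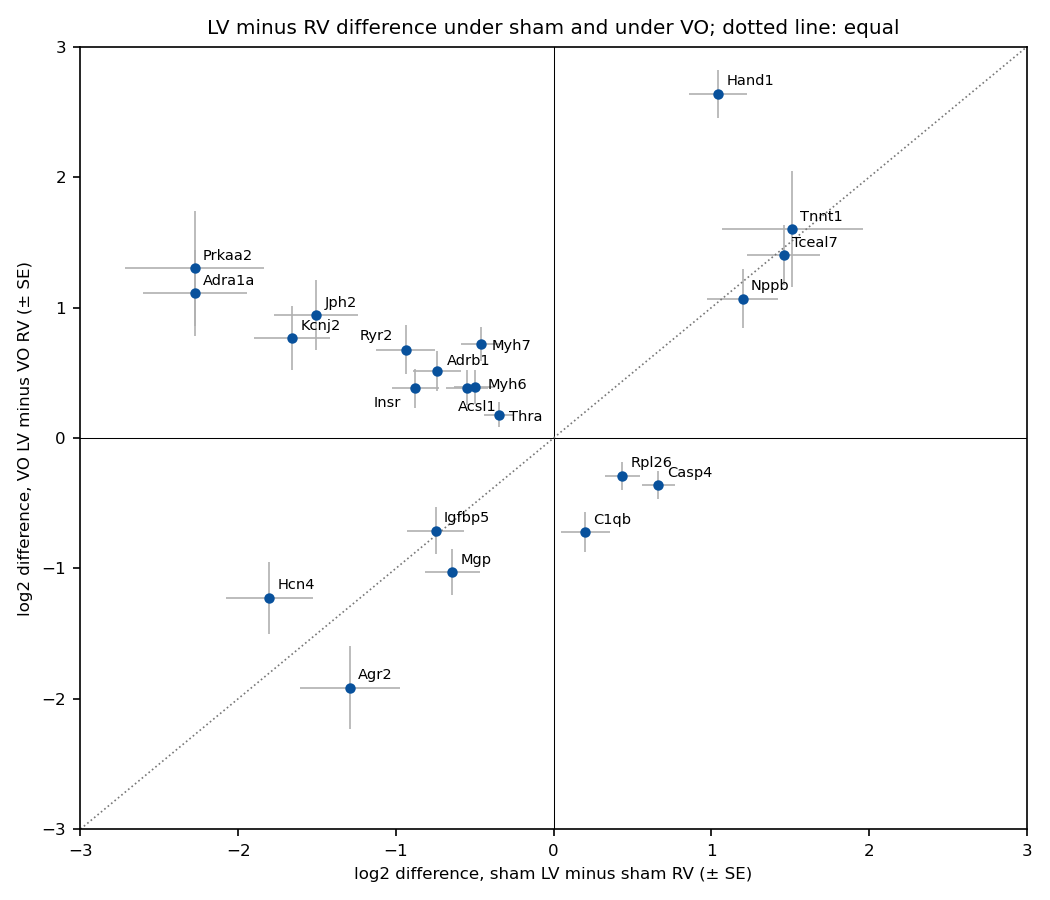
Log2 difference LV minus RV of 22 named genes in sham (x axis) and under VO (y axis), each ± SE from limma, with a dotted line where both are equal. Hand1 lies above the line at 1.04 and 2.64, Nppb, Tceal7 and Tnnt1 lie close to it, and Prkaa2, Adra1a, Jph2 and Myh7 lie in the upper left with opposite signs.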

How the data were processed

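The authors made poly(A) libraries of total RNA, aligned the reads and counted them per gene. The submitters' processing notes name HISAT2 2.0.5 and featureCounts 1.5.0-p3, and the genome build and strand setting are not given in the sources used here. The deposited table holds FPKM values, computed by the authors from the gene counts and gene lengths, for 12 libraries of 4 groups, with 0 columns left unmapped. It also holds gene coordinates, which are printed as listed. The FPKM steps gave whole reads for 100% of values under 200 reads (tolerance 0.02), and the total that each library's FPKM implies was 0.967 to 1.124 times its recovered reads on genes. Depth limits the precision at low levels, and counting error is only part of the spread between libraries.

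FPKM was divided by a median-ratio size factor and tested as log2(FPKM + 0.5), which understates changes of low genes. Genes with a mean of at least 0.5 FPKM over the 12 libraries entered 1 limma model of 4 groups (limma 3.58.1, R 4.3.3, empirical Bayes with an intensity trend), with no covariate. A DEG had a Benjamini-Hochberg adjusted p under 0.05 over all tested genes and a fold change over 1.3. The same model gave the sham contrast and the change of the difference. The scripts were tested on simulated data. The members and gene lists were chosen with earlier results of these data known, so a list is described by its counts and median beside those of all genes, with no set test. Named genes were Insr, Thra and Acsl1, the largest differences in each direction (protein-coding, mean of at least 1 FPKM, no overlap), the members of each list with the smallest p, the chamber transcription factors and atrial markers. The 12 smallest p of all genes and further list members (such as Acta1, Fhl1, Prkaa2, Adrb1, Postn, Col1a1, Igf2, Npr3, Corin, Tnni1, Tnni3, Pdk4 and Lpl) were added after their values were seen. Some genes that these rules name are not reported here. Replicate numbers were checked for pairing: the deviations of same-numbered VO LV and VO RV libraries from their group means correlated at 0.05, −0.05 and −0.22 across genes, so the numbers were not used as a block in the model. In all, 31 settings were tried, of which 2 were added after seeing the data. Promoter windows are from RefSeq (GRCr8). Figures were drawn with matplotlib 3.10.9.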

Additional observations from a re-analysis of the deposited data

Results flagged for a closer look

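The 166 named genes, some of which are not reported here, were largely chosen for their VO difference, so the number among them whose difference changed is no result about them (over all 13910 tested genes it was 583, or 4.19%, with a fold change over 1.3 required as well). For 46 of them, the LV minus RV difference under VO differed from that in sham by the test of the change itself (adjusted p under 0.05 from limma over all tested genes), and each is given with its change on the log2 scale, VO minus sham. In 40 of them the change was positive and in 6 negative. Among transcription factors and their coregulators these were Hand1 (1.60), Tbx20 (2.73), Gata5 (0.86), Mef2a (1.29), Mef2d (1.11), Myocd (1.38), Srf (0.93), Tead1 (1.59) and Klf9 (1.22). Contractile, Z-disc and junction genes were Myh6 (0.89), Myh7 (1.18), Smyd1 (2.68), Nrap (0.86), Dsp (1.47), Ctnna1 (0.48) and Gja1 (1.26). Genes of calcium handling, channels and receptors were Ryr2 (1.61), Jph2 (2.45), Atp2a2 (1.23), Kcnj2 (2.43), Slc12a7 (0.80), Adra1a (3.39), Adrb1 (1.26) and Chrm2 (2.93). Metabolic and insulin-related genes were Insr (1.26), Acsl1 (0.94), Prkaa2 (3.58), Ppard (0.65), Ppargc1b (1.34), Pdk4 (2.30), Sdha (0.90) and Ndufs1 (1.14). Others were Ccnd2 (2.76), Celf1 (1.44), Rbm20 (0.84), Hspa9 (1.51), Klhdc8b (0.69), C1qb (−0.92), Casp4 (−1.02) and Rpl26 (−0.73). The uncertain or unnamed genes were LOC100909750 (4.03), LOC100912538 (3.24), AABR07062799.2 (2.66) and LOC100911746 (−4.76), and the small nucleolar RNA genes SNORD47 (−1.70) and SNORD19B (−2.75).

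These changes depended on single libraries. Without sham RV replicate 1, 46 of the 46 kept their sign and 46 had an unadjusted p under 0.05 from limma, but 0 had an adjusted p under 0.05, and the smallest was 0.0664. Without VO RV replicate 2, 44 of the 46 had an adjusted p under 0.05. Summed red blood cell markers were 4930 to 8227 FPKM in sham RV, 9688 to 13270 FPKM in sham LV, 4810 to 10820 FPKM in VO RV and 6505 to 9963 FPKM in VO LV, and their part in the changes was not tested.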

How the results depend on the processing

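Hand1 was a DEG under every setting tried. Its log2 difference was 2.09 with a pseudocount of 1, 3.48 with 0.1 and 3.71 with voom on the recovered reads, and 2.57 to 2.72 when each library was left out. The count of DEGs, 1 in the model as described, was 2 with the atrial covariate (Nppa, 3.10), 2 without VO RV replicate 2 and sham RV replicate 1 together, and 2 in the libraries with at most a few Y-linked reads (LOC100911746, −3.31). The last 2 settings were chosen after seeing the data. It was 1030 without adjustment of p. Leaving out each library in turn gave 1 to 48 DEGs. The 48 came without VO RV replicate 1, and 2 came without sham LV replicate 2 (Mgp, −1.03) and without VO RV replicate 2 (AABR07026359.1, −4.80). The genes past the unadjusted p numbered 721 (without VO RV replicate 3, 290 higher and 431 lower) to 1590 (without VO RV replicate 1, 819 higher and 771 lower), and 777 without VO LV replicate 3 (327 higher and 450 lower). The split also moved with the atrial covariate (1342 genes, 826 higher and 516 lower) and without VO RV replicate 2 (716 and 427). Across the other settings the count ran from 706 to 1201. With the replicate number as a block there was 1 DEG, Hand1 (adjusted p = 0.0173 from limma), and 899 genes passed the unadjusted p. The cause of these moves was not tested. Hand1, the only gene called between VO LV and VO RV in the model as described, changed sign under no setting. The signs of the sham calls and of the calls of the change were not checked across all settings. With 3 libraries per group, the median SE of a log2 difference was 0.156, and values of a few reads, such as those of SNORD19B, AABR07029863.1 and Hand1 in the RV, rest on little depth.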
